A study of Mus musculus with 15 samples.

Results

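The 10 genes examined belong to the matrix metalloproteinases and their tissue inhibitors and were followed across 4 groups of mouse lungs: the metalloproteinases Mmp2, Mmp3, Mmp8, Mmp9, Mmp12, Mmp14 and Mmp19, and the inhibitors Timp1, Timp2 and Timp3. They were chosen by name, as all 14 array probes that the platform annotation assigns to these 10 genes, of 25697 probes and 16593 named genes in all. RNA of whole lung was measured on Illumina beadchips, with 1 array per mouse, in C57BL/6 mice aged 22 weeks. The groups were 4 homozygous mutants with OVA challenge, 4 wild types with OVA challenge, 3 homozygous mutants without challenge (labelled control) and 4 wild types without challenge. The study's title points to Ifit2, which interferon induces. The kind of mutation and the dosing of OVA (ovalbumin, an allergen from egg white that inflames the airways of sensitized mice) are not given in the sources at hand.

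Matrix metalloproteinases are zinc-dependent enzymes that cut proteins of the extracellular matrix and many secreted or cell-surface proteins. Most are secreted as inactive precursors and need to be cut themselves to become active, and the TIMPs hold the active enzymes in check by binding in their catalytic cleft. In the lung they are known for the turnover of elastin and collagen, for the passage of leukocytes through tissue and for remodelling in asthma and emphysema, and most of them are regulated in large part through transcription, often by cytokines and AP-1 factors.

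The 10 genes lie on 7 chromosomes of GRCm38.p6. Mmp12 (chr9:7344397-7360461), Mmp3 (chr9:7445822-7455975) and Mmp8 (chr9:7558429-7568486) belong to a cluster of 10 metalloproteinase genes within 427 kb of chromosome 9. The others are Mmp2 (chr8:92827290-92853421), Mmp9 (chr2:164940326-164955850), Mmp14 (chr14:54431598-54442456), Mmp19 (chr10:128790910-128800827), Timp1 (chrX:20870166-20874737), Timp2 (chr11:118301061-118355411) and Timp3 (chr10:86300412-86349505). A probe counted as detected on an array where the deposited detection p was under 0.05. In all, 8 genes, with 12 of the 14 probes, were detected on at least 3 arrays and could be tested. Mmp8, the neutrophil collagenase, was detected on 0 of 15 arrays, with detection p between 0.0827 and 0.664 and raw signals between 133 and 173. Mmp19, a metalloproteinase of many tissues, was likewise detected on 0 of 15 arrays, with detection p between 0.821 and 0.994 and raw signals between 84.0 and 122. These 2 probes were not above background, which sets no level for their genes. Of the 9 genes of the chromosome 9 cluster that have a probe, 4 were detected on any array, namely Mmp13, Mmp12, Mmp3 and Mmp1a, and Mmp1b, Mmp10, Mmp8, Mmp20 and Mmp7 were detected on 0 arrays.

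The upstream sequences of 7 of the 10 members, with 8 annotated starts, were at hand from RefSeq (GRCm38.p6) and were searched over the 250 bases before the start, on both strands. The motifs were an AP-1 site (TGANTCA), a STAT6 site (TTCNNNNGAA), a general STAT site (TTCNNNGAA) and a TATA box (TATAAA). Mmp12 and Mmp3 are shown because they are the only members of the 7 with a match, and Timp1 and Timp3 because these 2 inhibitors moved in opposite directions after challenge; capitals mark a match, and all 4 sequences lie on the plus strand.
Mmp12, before the second of 2 annotated starts, chr9:7347124-7347373: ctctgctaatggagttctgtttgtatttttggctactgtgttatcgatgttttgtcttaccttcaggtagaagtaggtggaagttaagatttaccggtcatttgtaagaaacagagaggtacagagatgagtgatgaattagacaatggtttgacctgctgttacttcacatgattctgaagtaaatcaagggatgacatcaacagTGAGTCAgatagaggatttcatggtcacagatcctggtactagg
Mmp3, chr9:7445572-7445821: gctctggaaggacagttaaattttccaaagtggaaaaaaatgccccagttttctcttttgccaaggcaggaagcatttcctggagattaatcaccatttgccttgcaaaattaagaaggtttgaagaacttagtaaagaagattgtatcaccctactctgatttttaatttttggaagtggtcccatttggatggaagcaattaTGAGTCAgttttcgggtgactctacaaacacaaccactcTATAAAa
Timp1, chrX:20869916-20870165: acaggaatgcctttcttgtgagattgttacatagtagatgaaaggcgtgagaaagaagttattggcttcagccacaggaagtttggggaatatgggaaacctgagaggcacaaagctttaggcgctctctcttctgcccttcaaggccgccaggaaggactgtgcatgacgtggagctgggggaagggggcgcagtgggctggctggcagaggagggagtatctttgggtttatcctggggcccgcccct
Timp3, chr10:86300162-86300411: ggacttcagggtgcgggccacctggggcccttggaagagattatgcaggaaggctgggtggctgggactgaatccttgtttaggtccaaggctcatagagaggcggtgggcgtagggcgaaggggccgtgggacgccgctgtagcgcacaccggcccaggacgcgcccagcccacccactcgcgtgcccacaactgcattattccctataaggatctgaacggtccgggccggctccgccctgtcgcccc
The letters TGAGTCA stand 44 to 38 bases before that Mmp12 start and 46 to 40 bases before the Mmp3 start. Mmp3 also has TATAAA at 7 to 2 bases before its start. The windows before the other Mmp12 start and those of Mmp8, Mmp14, Timp1, Timp2 and Timp3 held none of the motifs. Of 32841 such windows in the RefSeq table, 6.75% held the AP-1 letters, 5.85% the STAT6 letters, 7.02% the general STAT letters and 12.4% the TATA letters.

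Both Ifit2 probes were detected on 0 of 7 mutant arrays and on all 8 wild-type arrays. The mean raw signal of an array was 320 to 494 in challenged mutants, 438 to 502 in challenged wild types, 620 to 666 in unchallenged mutants and 495 to 645 in unchallenged wild types, so challenged arrays were mostly dimmer. In mutants the ranges with and without challenge did not overlap, and in wild types they barely did. A fit with mean signal as a covariate can therefore hardly separate it from challenge. Challenged mutant replicate 4 was the dimmest and correlated least with the other arrays (r between 0.86 and 0.95 over tested probes). Alveolar type 2 cell markers averaged between 12.45 and 13.26 log2 on every array, and 0 of 6 were undetected in any group. Genes of other tissues were present too: the exocrine pancreas genes averaged 14.40 and 10.75 log2 in challenged mutant replicates 2 and 1 and 13.33 and 12.20 log2 in challenged wild-type replicates 1 and 2, and the striated muscle genes ranged from 5.01 to 12.06 log2 over all arrays. Squamous epithelium genes ranged from 5.43 to 11.14 log2 over all arrays. Thymus genes averaged 10.62 log2 in challenged mutant replicate 1. The design text calls the mutants male, whereas both probes of Xist were detected on all 15 arrays.

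After OVA challenge the lungs held much more Mmp12 and Timp1 RNA in both genotypes, and less Timp3 RNA. Mmp14 RNA was somewhat higher in both genotypes, with a sign that depended on how the arrays were scaled. In mutants, 3 of the 8 tested genes rose (Mmp12, Mmp14 and Timp1) and 2 fell (Mmp2 and Timp3), whereas 30.2% of all tested genes were called there, 15.0% up and 15.2% down (limma, adjusted p under 0.05 over all probes). In wild types, the same 3 genes rose and Timp3 fell, and 22.6% of all tested genes were called, 11.2% up and 11.4% down. The median change of the 8 genes was 0.57 log2 in mutants and 0.30 log2 in wild types, beside medians of 0.01 and 0.02 log2 over all tested genes. Challenged and unchallenged arrays did not overlap for 5 of the 8 genes in mutants, where 38.3% of all genes did not overlap, and for 4 of the 8 in wild types, where 29.4% did not. In whole lung, more cells of a type and more RNA per cell cannot be told apart, and this holds for every value given here.

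**Figure D1:**
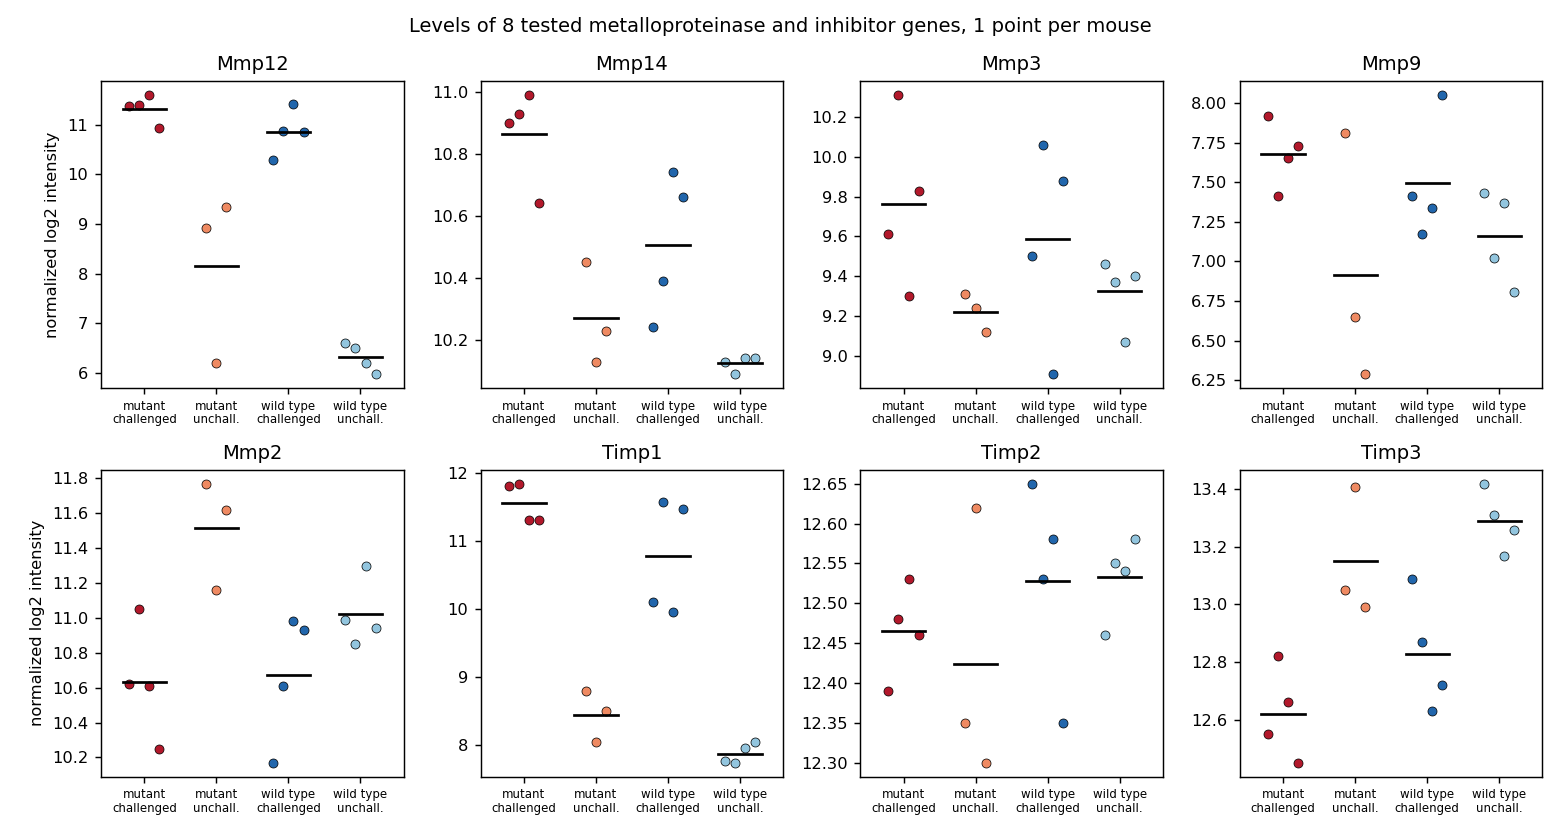
Normalized log2 intensity (vertical axes, a separate range per gene) of the brightest probe of each of the 8 tested genes, with 1 point per mouse and a bar at the group mean, for mutant and wild-type lungs with and without OVA challenge. Mmp12 and Timp1 separate all challenged from all unchallenged lungs, and unchallenged mutant replicates 1 and 3 lie between the groups for Mmp12.

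Mmp12, the macrophage metalloelastase, had the largest change of the members. Its probe (ILMN_1250421) read 11.38, 11.39, 11.60 and 10.94 log2 in challenged mutants, against 8.92, 6.20 and 9.34 log2 in unchallenged mutants. In wild types it read 10.29, 10.87, 11.41 and 10.86 log2 with challenge, against 6.60, 6.51, 6.21 and 5.98 log2 without. All 8 challenged lungs were high, and among the unchallenged lungs 2 mutants stood well above the third mutant and the wild types. The change was 3.17 ± 0.54 log2 in mutants (SE; 9.02-fold, 95% interval 4.07 to 20.0; limma, adjusted p = 0.00104) and 4.53 ± 0.50 log2 in wild types (95% interval 3.47 to 5.59; adjusted p = 6.70e-05). The value in mutants rests on which unchallenged mutant is included: it was 2.20 log2 without replicate 2, 3.55 log2 without replicate 1 and 3.77 log2 without replicate 3, and with the mean signal of each array as a covariate it was 2.99 log2 and missed the threshold (adjusted p = 0.0889). The size also rests on the background correction, since unchallenged wild types read close to background (raw signals of 198 to 241, detection p up to 0.00752): without that correction the change was 2.54 log2 in mutants and 3.21 log2 in wild types, and both passed.

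The unchallenged mutants with high Mmp12 were also the ones with high macrophage, eosinophil and goblet cell genes. The 6 alternatively activated macrophage genes (among them Retnla, Chil3 and Arg1) averaged 9.37 and 9.40 log2 in unchallenged mutant replicates 1 and 3 and 8.18 log2 in replicate 2, against 8.01 to 8.28 log2 in unchallenged wild types. The 7 tested genes of the general macrophage list averaged 8.23 and 8.13 log2 in the same replicates and 7.33 log2 in replicate 2, against 7.32 to 7.62 log2 in unchallenged wild types. With challenge, the 6 alternatively activated macrophage genes averaged 10.94 to 11.20 log2 in mutants and 10.44 to 11.09 log2 in wild types. Of these 6 genes, 5 rose in each genotype, where 15.0% of all tested genes rose in mutants and 11.2% in wild types. The 2 tested eosinophil genes (of 6 listed) averaged 6.57 and 7.41 log2 in unchallenged mutant replicates 1 and 3 and 5.20 log2 in replicate 2, against 5.01 to 5.50 log2 in unchallenged wild types. The 3 tested goblet cell genes (of 4) averaged 7.81 and 8.21 log2 in replicates 1 and 3 and 5.78 log2 in replicate 2, against 5.45 to 6.90 log2 in unchallenged wild types. On all 4 lists replicates 1 and 3 stood above every unchallenged wild type, and replicate 2 did not. Of the general macrophage list, Msr1 was undetected in every group. Marco was undetected in challenged lungs of both genotypes and detected in unchallenged lungs of both. The part of these genes in the Mmp12 values was not tested. Around the group means, Mmp12 followed the macrophage list with r = 0.85 and the alternatively activated list with r = 0.80 over the 15 arrays, which is a description and carries no test.

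**Figure D2:**
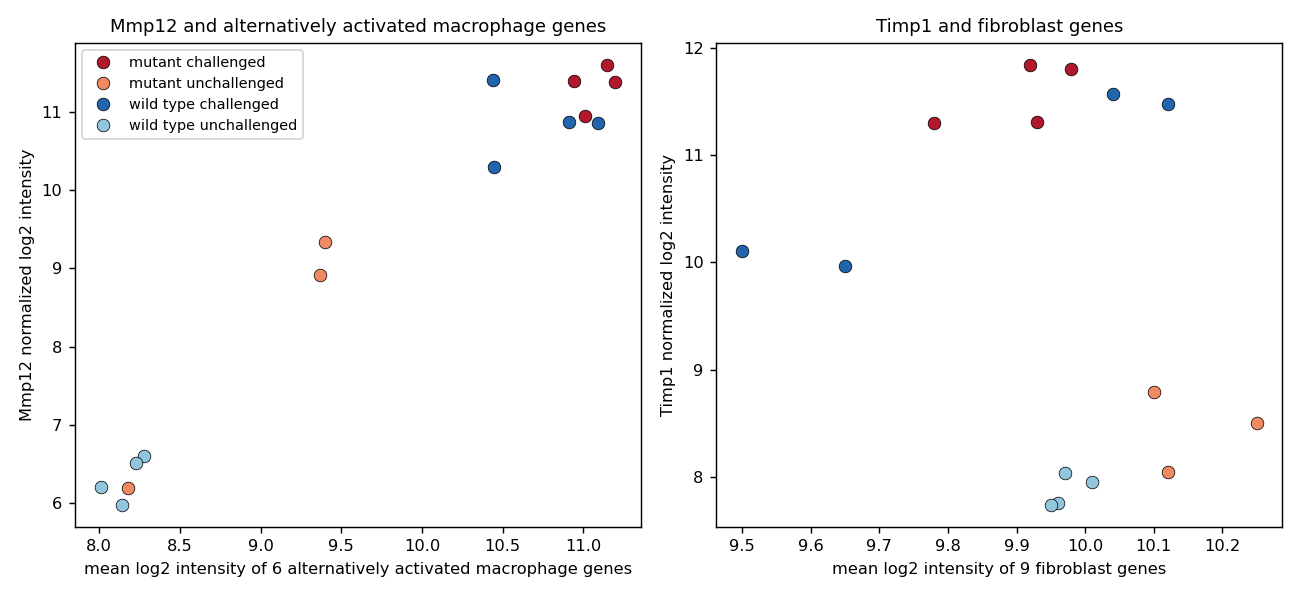
Left, Mmp12 against the mean of 6 alternatively activated macrophage genes; right, Timp1 against the mean of 9 fibroblast genes, all in normalized log2 intensity with 1 point per mouse and colours by group. Unchallenged mutant replicates 1 and 3 (9.37 and 9.40 on the left horizontal axis) lie between unchallenged wild types and challenged lungs for Mmp12, and challenged wild-type replicates 1 and 3 are lowest in fibroblast genes and have the lowest Timp1 of the challenged lungs.

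Mmp14, a membrane-anchored metalloproteinase that activates the precursor of Mmp2, changed far less. Its probe (ILMN_1240726) read 10.90, 10.93, 10.99 and 10.64 log2 in challenged mutants, against 10.45, 10.13 and 10.23 log2 in unchallenged mutants. In wild types it read 10.24, 10.39, 10.74 and 10.66 log2 with challenge, against 10.13, 10.09, 10.14 and 10.14 log2 without. The groups did not overlap in either genotype, though the lowest challenged wild type stood only a little above the unchallenged ones. The change was 0.59 ± 0.14 log2 in mutants (SE; 1.51-fold; limma, adjusted p = 0.00603) and 0.38 ± 0.13 log2 in wild types (1.30-fold; adjusted p = 0.0433). Both signs depend on the scaling: after scaling each array by its median the changes were -0.12 log2 in mutants and -0.05 log2 in wild types, where the medians of all probes were -0.54 and -0.31 log2, so relative to all probes Mmp14 stood at 0.42 and 0.26 log2. Before normalization the signals overlapped, at 804 to 1830 in challenged mutants against 1640 to 1930 in unchallenged mutants, and at 1010 to 1640 in challenged wild types against 1200 to 1650 in unchallenged wild types. The wild-type call was lost without any 1 of the unchallenged wild types (adjusted p = 0.0714, 0.0978, 0.0866 and 0.0847 for replicates 1 to 4), without challenged wild-type replicate 2, 3 or 4 (0.0566, 0.118 and 0.0970) and without unchallenged mutant replicate 3 (0.0569), and both calls were lost with the mean signal as a covariate, where the changes were not smaller (0.76 log2, adjusted p = 0.0749 in mutants and 0.47 log2, adjusted p = 0.0726 in wild types).

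Mmp2, gelatinase A, which is known for its expression in fibroblasts, moved the other way. The probe (ILMN_2678218) read 10.62, 11.05, 10.61 and 10.25 log2 in challenged mutants, against 11.77, 11.16 and 11.62 log2 in unchallenged mutants. In wild types Mmp2 read 10.17, 10.61, 10.98 and 10.93 log2 with challenge, against 10.99, 10.85, 11.30 and 10.94 log2 without. Challenged mutants lay below all unchallenged mutants, and the wild-type groups overlapped. Mmp2 fell by 0.88 log2 in mutants (SE 0.22; 1.85-fold lower; limma, adjusted p = 0.00949), and the difference in wild types was -0.35 ± 0.21 log2 (95% interval -0.79 to 0.10; adjusted p = 0.245). The mutant call was lost with the mean signal as a covariate (-0.51 log2, adjusted p = 0.438), with the fibroblast level as a covariate (-0.68 log2, adjusted p = 0.0636) and without challenged mutant replicates 1 and 4 (-0.69 log2, adjusted p = 0.0714). The 9 fibroblast genes averaged 9.78 to 9.98 log2 in challenged mutants, against 10.10 to 10.25 log2 in unchallenged mutants, without overlap. These 9 genes went both ways in mutants: 2 rose (Col3a1 and Col1a2) and 3 fell, Pdgfra by 1.18 log2 and Fbln1 by 0.75 log2 among them. Over all tested genes, 15.0% rose and 15.2% fell in mutants.

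Mmp3 (stromelysin 1, a broad matrix protease that also activates other metalloproteinases) was read by 3 probes that did not give the same call. The brightest (ILMN_2899041) read 9.61, 10.31, 9.30 and 9.83 log2 in challenged mutants, against 9.31, 9.24 and 9.12 log2 in unchallenged mutants, and 9.50, 10.06, 8.91 and 9.88 log2 in challenged wild types, against 9.46, 9.37, 9.07 and 9.40 log2 in unchallenged wild types. Challenged lungs were spread widely and overlapped with unchallenged ones. Its difference was 0.54 ± 0.26 log2 in mutants (limma, adjusted p = 0.119) and 0.26 ± 0.24 log2 in wild types (adjusted p = 0.443). The probe ILMN_2753809 gave 0.69 ± 0.21 log2 in mutants, which passed (adjusted p = 0.0238), and 0.47 ± 0.20 log2 in wild types, which did not (adjusted p = 0.0943). The dimmest probe, ILMN_2704576, gave 0.47 ± 0.26 and 0.10 ± 0.24 log2 in these comparisons (adjusted p = 0.174 and 0.785). The call of ILMN_2753809 in mutants was lost without unchallenged mutant replicate 2 (0.75 log2, limma, adjusted p = 0.0548) or 3 (0.56 log2). It was also lost without challenged mutant replicate 4 (0.62 log2, adjusted p = 0.0552) or replicates 1 and 4 together (0.55 log2, adjusted p = 0.139). The mean signal as a covariate lost it too (0.74 log2, adjusted p = 0.254). So did leaving out the 4 challenged arrays highest in pancreas genes (0.67 log2, adjusted p = 0.0640) or adjusting for the pancreas level (0.66 log2, adjusted p = 0.0607). In wild types the probe passed without challenged replicate 3 (0.65 log2, adjusted p = 0.0250) and with array weights (0.60 log2, adjusted p = 0.0169). It passed there as well with the replicate block (0.47 log2, adjusted p = 0.0341) and with the fibroblast level as a covariate (0.60 log2, adjusted p = 0.0409). With median scaling the differences were -0.20, -0.03 and -0.15 log2 in mutants for the 3 probes in this order, which relative to the median of all probes is 0.34, 0.51 and 0.39 log2.

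Mmp9, gelatinase B, which neutrophils store in granules, was dim and variable. The probe (ILMN_2711075) read 7.92, 7.41, 7.65 and 7.73 log2 in challenged mutants, against 7.81, 6.65 and 6.29 log2 in unchallenged mutants. In wild types Mmp9 read 7.41, 7.17, 7.34 and 8.05 log2 with challenge, against 7.43, 7.02, 7.37 and 6.81 log2 without. The groups overlapped in both genotypes. The difference was 0.76 ± 0.30 log2 in mutants (SE; 95% interval 0.11 to 1.41; limma, adjusted p = 0.0709) and 0.34 ± 0.28 log2 in wild types (95% interval -0.26 to 0.94; adjusted p = 0.407). Without unchallenged mutant replicate 1, the one with the high reading, the difference in mutants was 1.21 log2 and passed (adjusted p = 0.00508). That mouse also had the highest mean of the 7 tested neutrophil genes among unchallenged mutants, at 7.93 log2 against 7.36 and 7.19 log2 in the others. Its mean of the general macrophage list was the highest of these mice too, at 8.23 log2. Challenged wild-type replicate 1 had the highest neutrophil mean of all arrays, at 9.19 log2, with Mmp9 at 7.41 log2. The part of neutrophils in the Mmp9 values was not tested.

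Timp1, the secreted inhibitor that inflammatory cytokines are known to induce, gave the most stable change. Its brighter probe (ILMN_3103896) read 11.80, 11.84, 11.31 and 11.30 log2 in challenged mutants, against 8.79, 8.05 and 8.50 log2 in unchallenged mutants. In wild types it read 10.10, 11.57, 9.96 and 11.47 log2 with challenge, against 7.76, 7.74, 7.95 and 8.04 log2 without. Every challenged lung was above every unchallenged one, and the challenged wild types formed a lower and a higher pair. Timp1 rose by 3.11 ± 0.35 log2 in mutants (SE; 8.65-fold, 95% interval 5.15 to 14.5; limma, adjusted p = 9.26e-05) and by 2.90 ± 0.32 log2 in wild types (7.46-fold, 4.62 to 12.1; adjusted p = 7.89e-05). The other probe (ILMN_2769918) gave 3.05 ± 0.41 and 2.83 ± 0.38 log2 in the same order. The brighter probe was called in both genotypes under all 32 alternatives.

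The split among challenged wild types went with some cell type lists and not with others. It also went with the mean raw signal, at 438 and 449 in replicates 1 and 3 and 502 in both replicates 2 and 4. Replicates 1 and 3, with low Timp1, averaged 9.50 and 9.65 log2 over the 9 fibroblast genes, and replicates 2 and 4 averaged 10.04 and 10.12 log2. The alternatively activated macrophage genes split the same way, at 10.45 and 10.44 log2 in replicates 1 and 3 and 10.91 and 11.09 log2 in replicates 2 and 4. So did the 2 eosinophil genes, at 8.67 and 8.90 log2 in replicates 1 and 3 and 9.17 and 9.92 log2 in replicates 2 and 4. Striated muscle genes did too, at 5.01 and 11.07 log2 against 12.06 and 11.94 log2, as did smooth muscle genes, at 10.58 and 10.52 log2 against 10.86 and 10.60 log2. Club cell genes split the other way, at 14.84 and 14.84 log2 against 14.43 and 14.26 log2. Alveolar type 2 markers (12.88 and 12.91 log2 against 12.73 and 12.64 log2) and ciliated cell genes (8.73 and 9.05 log2 against 8.49 and 7.85 log2) also split the other way. The general macrophage list did not split so (7.95 and 8.55 log2 against 8.22 and 8.18 log2). Nor did the neutrophil list (9.19 and 8.32 log2 against 8.66 and 9.15 log2). Mmp3 was also higher in replicates 2 and 4 than in replicates 1 and 3. Around the group means Timp1 followed the fibroblast list with r = 0.84 and the alternatively activated macrophage list with r = 0.63, and Timp1 and Mmp3 followed each other with r = 0.69, over 15 arrays, given as a description. The part of these cell types in the Timp1 values was not tested, nor was that of the array signal in this split.

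Timp2, the inhibitor that also takes part in the activation of the Mmp2 precursor at the cell surface, was nearly level. Its probe (ILMN_2712867) read 12.39, 12.48, 12.53 and 12.46 log2 in challenged mutants and 12.65, 12.53, 12.58 and 12.35 log2 in challenged wild types, against 12.35, 12.62 and 12.30 log2 in unchallenged mutants and 12.46, 12.55, 12.54 and 12.58 log2 in unchallenged wild types. All groups overlapped. The difference was 0.04 ± 0.11 log2 in mutants (95% interval -0.19 to 0.28; limma, adjusted p = 0.777) and -0.00 ± 0.10 log2 in wild types (95% interval -0.22 to 0.22; adjusted p = 0.980). After median scaling the value in mutants was -0.54 log2 (adjusted p = 0.0171), which was -0.00 log2 relative to all probes.

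Timp3, the inhibitor that binds to the extracellular matrix and also restrains ADAM proteases, fell in both genotypes by both probes. The brighter one (ILMN_2741096) read 12.55, 12.82, 12.66 and 12.45 log2 in challenged mutants, against 13.05, 13.41 and 12.99 log2 in unchallenged mutants. In wild types it read 13.09, 12.87, 12.63 and 12.72 log2 with challenge, against 13.42, 13.31, 13.17 and 13.26 log2 without. No challenged lung reached the unchallenged lungs of its genotype. It fell by 0.53 log2 in mutants (SE 0.14; 1.44-fold lower; limma, adjusted p = 0.0143) and by 0.46 log2 in wild types (SE 0.13; 1.38-fold lower; adjusted p = 0.0242). The dimmer probe (ILMN_2614759) read 6.88, 7.16, 5.69 and 5.95 log2 in challenged mutants, against 7.87, 8.25 and 8.12 log2 in unchallenged mutants, and the last 2 of the challenged mutants were not detected. The challenged wild types read 7.43, 7.07, 6.95 and 7.17 log2, against 8.36, 7.90, 8.14 and 8.28 log2 in unchallenged wild types. By this probe Timp3 fell by 1.66 log2 in mutants (SE 0.29; adjusted p = 0.00112) and by 1.02 log2 in wild types (SE 0.26; adjusted p = 0.0143). With the mean signal as a covariate neither probe passed. The brighter probe was then at -0.47 log2 in mutants and -0.43 log2 in wild types, close to its values without the covariate (adjusted p = 0.276 and 0.125), and the dimmer one at -1.12 and -0.72 log2 (adjusted p = 0.178 and 0.171). Without background correction the dimmer probe fell by 0.86 log2 in mutants and still passed. The brighter probe also lost its call in mutants without unchallenged replicate 2 (adjusted p = 0.0925), and in wild types without replicate 1, 2 or 4 of the unchallenged or 3 or 4 of the challenged mice (adjusted p between 0.0502 and 0.0688). Its wild-type call was lost with cyclic loess as well (-0.34 log2, limma, adjusted p = 0.0878). In mutants the call was lost with only the groups compared (limma, adjusted p = 0.0579) and without challenged replicates 1 and 4 (adjusted p = 0.0980). Endothelial genes were also lower after challenge. The 4 tested genes averaged 8.89 to 9.72 log2 in challenged mutants, against 10.04 to 10.41 log2 in unchallenged mutants. In wild types they averaged 9.32 to 9.83 log2 with challenge, against 10.29 to 10.40 log2 without. This was not particular to endothelium. The 2 tested club cell genes averaged 13.59 to 14.24 log2 against 14.77 to 15.13 log2 in mutants, and 14.26 to 14.84 against 15.06 to 15.17 in wild types. Alveolar type 2 markers averaged 12.45 to 12.80 log2 against 13.00 to 13.26 log2 in mutants, and 12.64 to 12.91 against 12.94 to 13.04 in wild types. The part of these cell types in the Timp3 values was not tested.

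**Figure D3:**
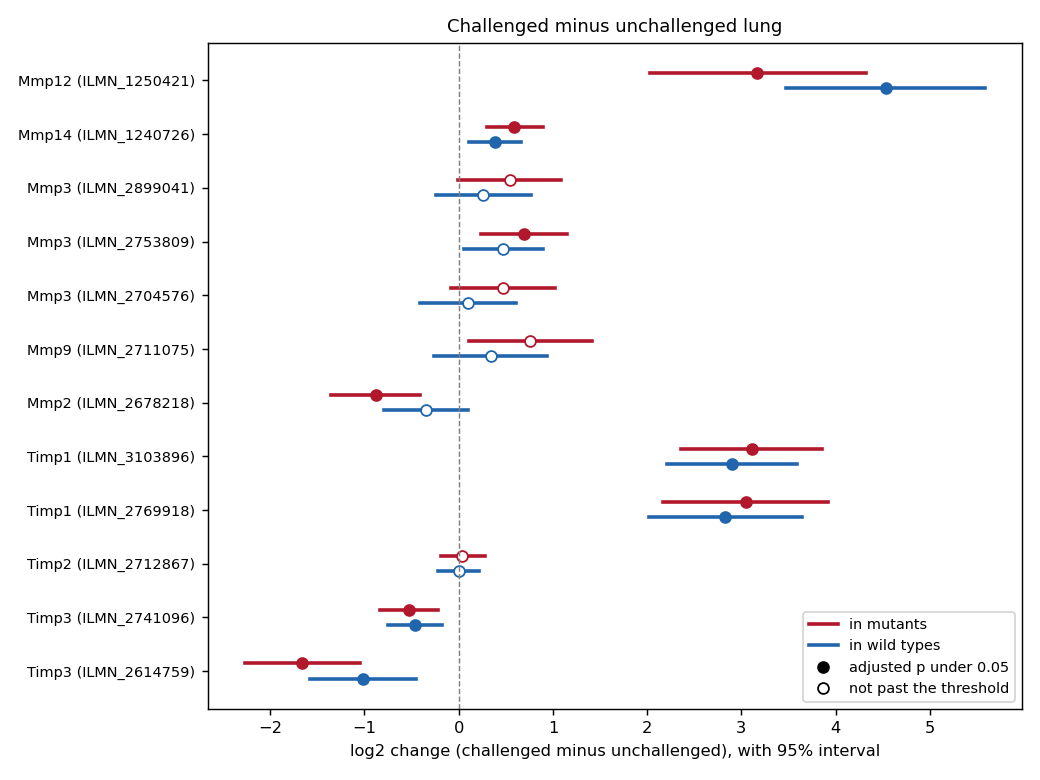
Log2 change after OVA challenge (challenged minus unchallenged, horizontal axis) of the 12 tested probes of the 8 genes, in mutants and in wild types, with 95% intervals; filled points passed an adjusted p of 0.05. Mmp12 and Timp1 changed most, at 3.17 and 3.11 log2 in mutants and 4.53 and 2.90 log2 in wild types; the positive values of Mmp14 and of the Mmp3 probes in mutants turn below 0 when arrays are scaled by their median, which lowers the median of all probes (to -0.54 log2 in mutants and -0.31 log2 in wild types), and stay above 0 relative to it.

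Mutants and wild types were then compared under the same challenge state. Among challenged lungs, 0 of 8 genes passed, beside 0.157% of all tested genes (limma, adjusted p under 0.05), and 2 of the 8 had an unadjusted p under 0.05 by their brightest probe, where 13.0% of all tested genes did. These were Mmp14, with a difference of 0.35 ± 0.13 log2 (limma, adjusted p = 0.260), and Timp1, with 0.78 ± 0.32 log2 (limma, adjusted p = 0.331). The mutant and wild-type arrays overlapped for all 8 genes, whereas they did not for 4.39% of all tested genes. Timp3's dimmer probe was -0.74 ± 0.26 log2 (limma, adjusted p = 0.254), with a difference of -1.24 log2 that passed (adjusted p = 0.0250) without the 4 arrays rich in pancreas genes and -0.94 log2 (adjusted p = 0.0482) with the striated muscle level as a covariate, both chosen after seeing the data. Its brighter probe gave -0.21 ± 0.13 log2 (limma, adjusted p = 0.540). Mmp12 gave 0.47 ± 0.50 log2 (95% interval -0.59 to 1.53).

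Among unchallenged lungs, 0 of the 8 genes passed either, beside 0.00981% of all tested genes, and 2 had an unadjusted p under 0.05, where 2.64% of all tested genes did. Mmp12 differed most: the difference was 1.83 ± 0.54 log2 (3.55-fold, 95% interval 1.60 to 7.85; limma, adjusted p = 1.00), with 2 of 3 mutants above all wild types. Without mutant replicate 2 it was 2.80 log2 and passed (adjusted p = 3.01e-04), and without replicate 1 or 3 it was 1.44 and 1.23 log2 and did not (adjusted p = 1.00 for both). Mmp2 was 0.50 ± 0.22 log2 (95% interval 0.02 to 0.98; limma, adjusted p = 1.00). By the brighter Timp1 probe all 3 unchallenged mutants lay above all unchallenged wild types, though only by 8.05 against 8.04 log2 at the nearest, and 7.87% of all genes had groups that did not overlap. By the other Timp1 probe the groups overlapped, with a lowest mutant of 7.70 log2 and a highest wild type of 7.72 log2. The difference by the brighter probe was 0.57 ± 0.35 log2 (95% interval -0.18 to 1.32; limma, adjusted p = 1.00). The other 5 genes differed by between -0.24 and 0.14 log2.

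**Figure D4:**
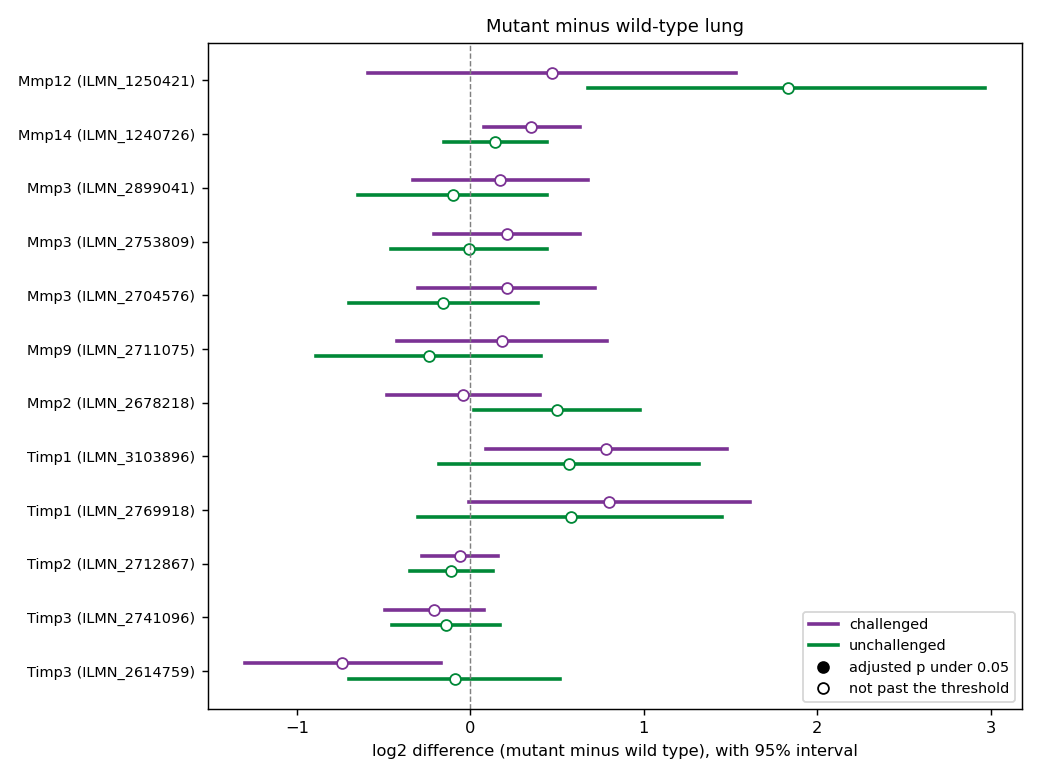
Log2 difference between mutant and wild-type lungs (mutant minus wild type, horizontal axis) of the 12 tested probes, among challenged and among unchallenged mice, with 95% intervals; all points are open because none passed an adjusted p of 0.05. Mmp12 in unchallenged lungs, at 1.83 log2, lies farthest from 0 and has a wide interval.

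Whether the response to challenge differed between genotypes was tested by the interaction (challenge in mutants minus challenge in wild types). It passed for 0 of 8 members, by an adjusted or an unadjusted p of 0.05, and for 0 of all 14396 probes (limma); 4.10% of all tested genes had an unadjusted p under 0.05. For Mmp12 the interaction was -1.36 ± 0.73 log2 (95% interval -2.92 to 0.20; limma, adjusted p = 1.00). It was -2.34 log2 and passed without unchallenged mutant replicate 2 (adjusted p = 0.0297), and -0.98 and -0.76 log2 without replicate 1 or 3. For Timp1 it was 0.21 ± 0.48 log2 (95% interval -0.81 to 1.23) and for Timp3 -0.07 ± 0.20 log2 by the brighter probe (95% interval -0.49 to 0.36). Mmp2, called in mutants and not in wild types, had an interaction of -0.54 ± 0.31 log2 (95% interval -1.19 to 0.11; limma, adjusted p = 1.00), so a difference between genotypes was not shown.

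By group mean, Mmp12, Mmp14 and Timp1 shared the order of challenged mutants, challenged wild types, unchallenged mutants and unchallenged wild types, from high to low. Their means over this order were 11.33, 10.86, 8.15 and 6.33 log2 for Mmp12, 10.86, 10.51, 10.27 and 10.13 log2 for Mmp14, and 11.56, 10.77, 8.45 and 7.87 log2 for Timp1. Challenged and unchallenged lungs of the same genotype differed past the threshold for all 3 genes, and the genotypes within a challenge state did not. The step between challenged wild types and unchallenged mutants was not tested, and for Mmp14 these groups overlap, at 10.24 to 10.74 log2 against 10.13 to 10.45 log2. Timp3 ran in the opposite order, with means of 12.62 log2 in challenged mutants, 12.83 log2 in challenged wild types, 13.15 log2 in unchallenged mutants and 13.29 log2 in unchallenged wild types.

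The genes most like each member over the 15 arrays, by Pearson correlation of log2 levels with 10193 other genes, are given as a description, since all arrays share the groups. For Mmp12 they were Clec7a (the beta-glucan receptor dectin-1 of myeloid cells; r = 0.99), Retnla (a secreted product of alternatively activated macrophages; r = 0.99) and Slc26a4 (an anion exchanger of airway epithelium; r = 0.98). For Timp1 they were Ccl7 (a monocyte and eosinophil chemokine; r = 0.99), Fxyd4 (r = 0.98) and Arg1 (arginase 1; r = 0.98). For Timp3 they were Zbtb46, Dusp8 and Afap1l1 (r = 0.95 each), and for Mmp14 Abcf1, Cfb and Cotl1 (r = 0.94 each). Mmp2 was most like Axl (a receptor tyrosine kinase; r = 0.90), Osmr (the oncostatin M receptor subunit; r = 0.89) and the basement membrane gene Nid1 (r = 0.88). For Mmp9 they were Gpx1 and Ptpn18 (r = 0.85 each) and Spi1 (the myeloid factor PU.1; r = 0.84). The closest genes of Mmp3 (Snx3, r = 0.80) and Timp2 (Dysf, r = 0.79) were less alike.

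Other genes of the pathway were read from 5 lists. Their counts stand beside 30.2% of all tested genes called in mutants (15.0% up, 15.2% down). In wild types 22.6% were called (11.2% up, 11.4% down). Whether a list differs from these shares was not tested. Of 17 other metalloproteinase family genes, with Timp4 among them, 6 were tested, of which 2 rose and 0 fell in each genotype. Mmp13, collagenase 3, rose by 1.69 ± 0.37 log2 in mutants (limma, adjusted p = 0.00411) and by 1.45 ± 0.34 log2 in wild types (adjusted p = 0.00807). Mmp1a, an interstitial collagenase gene next to Mmp3, was 0.48 ± 0.20 log2 in mutants (adjusted p = 0.0778) and rose by 0.76 ± 0.18 log2 in wild types (adjusted p = 0.00940). Mmp23 rose by 0.61 ± 0.21 log2 in mutants (adjusted p = 0.0417) and was 0.52 ± 0.20 log2 in wild types (adjusted p = 0.0673).

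Among 13 tested activators and regulators of metalloproteinases, 4 rose and 3 fell in mutants, and 3 rose and 3 fell in wild types. Lcn2, the lipocalin that binds Mmp9, rose by 1.61 log2 in mutants (limma, adjusted p = 0.00315) and by 2.63 log2 in wild types (adjusted p = 1.11e-04). Reck, a membrane-anchored inhibitor of metalloproteinases, fell by 0.95 log2 in mutants (adjusted p = 0.00389) and by 1.04 log2 in wild types (adjusted p = 0.00204). Cd44, a hyaluronan receptor that can hold Mmp9 at the cell surface, rose by 0.52 log2 in mutants (adjusted p = 0.0406) and by 0.83 log2 in wild types (adjusted p = 0.00342). Thbs1, thrombospondin 1, fell by 0.75 log2 in wild types (adjusted p = 0.00547), where it was detected on 1 of 4 challenged arrays. In challenged mutants it was not well above background on any array, and the difference from unchallenged mutants passed (limma, adjusted p = 0.0225). The lowest detected signal bounds it at least 1.06-fold below unchallenged mutants, and this bound carries no test.

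Of 11 tested ADAM and ADAMTS proteases, 1 rose and 1 fell in mutants, and 2 rose and 2 fell in wild types. Adam8, a leukocyte sheddase, rose by 0.83 log2 in mutants (limma, adjusted p = 0.0213) and by 1.07 log2 in wild types (adjusted p = 0.00497). Of 17 tested inducers of metalloproteinase genes, 5 rose and 1 fell in mutants, and 4 rose and 3 fell in wild types. Junb, a subunit of AP-1, rose by 1.46 log2 in mutants (adjusted p = 2.40e-04) and by 1.23 log2 in wild types (adjusted p = 5.65e-04). The cytokine genes Osm (1.55 log2 in mutants and 1.48 log2 in wild types) and Il1b (1.90 and 1.94 log2) rose too, while the transcription factor gene Ets2 fell by 0.60 log2 in mutants and by 0.92 log2 in wild types (limma, adjusted p = 0.00961 and 7.22e-04).

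Of 14 tested matrix proteins and other substrates, 2 rose and 6 fell in mutants, and 2 rose and 4 fell in wild types. The median change of these 14 genes was -0.31 log2 in mutants and -0.15 log2 in wild types, beside medians near 0 over all tested genes. Bgn (biglycan, a small proteoglycan) fell by 0.89 log2 in mutants and by 0.76 log2 in wild types (limma, adjusted p = 0.00294 and 0.00591). Fbln1, fibulin 1 of elastic fibres, fell by 0.75 log2 in mutants and by 0.74 log2 in wild types (adjusted p = 0.00241 and 0.00211), and Col4a1 of basement membranes fell by 0.35 and 0.46 log2 (adjusted p = 0.0339 and 0.00778). Col3a1, a fibrillar collagen, rose by 0.62 log2 in mutants and by 0.56 log2 in wild types (adjusted p = 0.0107 and 0.0148). In the genotype comparisons and the interaction, 0 genes of the 5 lists passed.

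**Figure D5:**
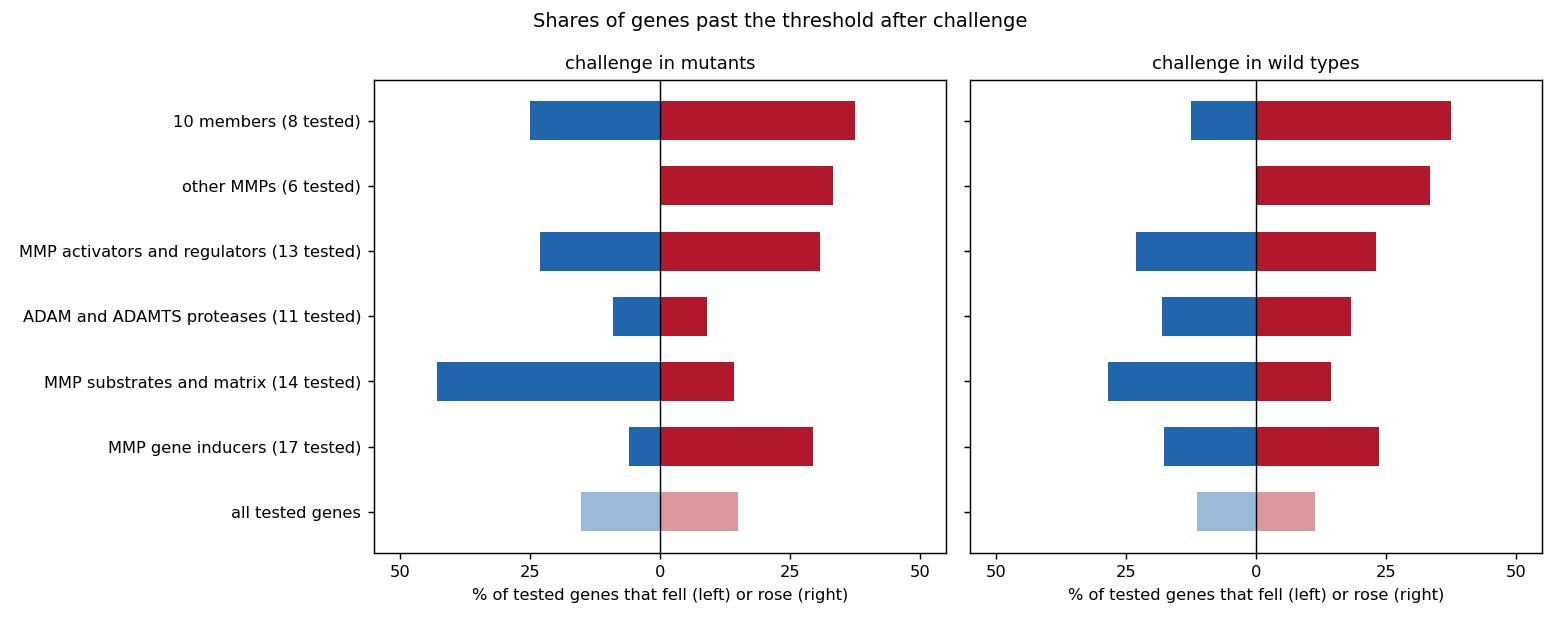
Share of tested genes, in %, that fell (left of 0) or rose (right of 0) past an adjusted p of 0.05 after challenge in mutants and in wild types, for the 10 metalloproteinase and inhibitor genes (8 tested), 5 lists of pathway genes and all tested genes. The list of substrates and matrix genes has the largest share that fell, 6 of 14 in mutants and 4 of 14 in wild types.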

How the data were processed

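Lung RNA was isolated with Trizol and amplified to biotin-labelled cRNA, per the labels' protocols. The deposited table holds intensities on a linear scale, 1 for each of 25697 probes on 15 arrays, and beside each the authors' detection p-value, per the file headers. The submitters' processing notes name GenomeStudio 2011.1. The authors' series matrix, a further set of linear intensities with unstated normalization and 21.1% to 21.2% of values below 0, served as an alternative.

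Background correction and quantile normalization used neqc (limma 3.58.1, R 4.3.3; offset 16), giving log2 values. Probes detected (p under 0.05) on at least 3 arrays were tested: 14396 probes, 10194 genes. The model (lmFit, eBayes) had a mean per group, all 15 arrays and 11 residual degrees of freedom. Two-sided p-values were adjusted by Benjamini-Hochberg over all tested probes, threshold 0.05. The labels give every array its own mouse. Errors are SE of the fit; the number of arrays limits the precision. The procedure was tested on simulated data.

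A gene is given by its probe with the highest mean, and all members and probes are named. From each pathway list the 4 genes with the smallest p among those called after challenge were eligible. Members and lists were chosen with earlier results of these data known. The main model did not use replicate numbers to pair arrays. Of 21 same-numbered pairs of arrays, 9 had deviations from group means correlated over 0.1 (range -0.11 to 0.5). Pairs with different numbers were not compared, and whether the numbers mark shared batches or pairs was not tested. Bounds for undetected groups use the lowest detected signal. Of 32 alternatives, 27 were planned and 5, which leave out or adjust for other tissues or doubted arrays, were chosen after seeing the data. Protein sequences were not analysed here.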

Additional observations from a re-analysis of the deposited data

Results flagged for a closer look

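Among 36 groups of 4 arrays (12 tested probes in 3 groups), 1 reading of Mmp14 lay far from the others: unchallenged wild-type replicate 2 read 10.09 log2, where the other 3 unchallenged wild types read 10.13 to 10.14 log2. About 1 in 20 such groups is marked by chance.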

How the results depend on the processing

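Over 60 member results and 32 alternatives, 38 of 1908 values lost a call, 9 gained one, 13 turned in sign and 71 changed sign in all, most of them within 1 SE of 0. Mmp12 and Timp1 in wild types and Timp1 in mutants kept their calls throughout. With mean signal as a covariate, the number of members called after challenge was 1 of 8 in mutants and 2 in wild types, in place of 5 and 4. Mean signal ran close to challenge, at 320 to 502 on challenged and 495 to 666 on unchallenged arrays. Calls lost with this covariate therefore cannot tell the effect of array signal from that of challenge. Without challenged mutant replicates 1 and 4 it was 3 in mutants. Leaving out 1 array at a time gave 4 to 6 members called in mutants, 2 to 4 in wild types, 0 for genotype with challenge, and 0 to 1 both for genotype without challenge and for the interaction, where the 1 was Mmp12 without unchallenged mutant replicate 2. Median scaling moved the median of all probes to -0.54 log2 in mutants and -0.31 log2 in wild types and turned Mmp3 (-0.20, -0.03 and -0.15 log2 by probe), Mmp14 (-0.12 log2) and Timp2 (-0.54 log2) in mutants, Mmp3 ILMN_2899041 (-0.16 log2), Mmp9 (-0.02 log2) and Mmp14 (-0.05 log2) in wild types, Mmp3 ILMN_2753809 between challenged genotypes (-0.07 log2) and the Mmp14 interaction (-0.07 log2). The Mmp14 interaction was -0.03 log2 without the 4 arrays rich in pancreas genes, Mmp3 ILMN_2899041 in wild types -0.01 log2 with the pancreas level as a covariate, and Timp1 ILMN_2769918 between unchallenged genotypes -0.03 log2 with the fibroblast level; the causes were not tested. The replicate number as a block left 5 members called in mutants, 3 in wild types (Mmp14 lost, adjusted p = 0.0705) and 0 elsewhere, and ILMN_2753809 of Mmp3 passed in wild types (adjusted p = 0.0341); it changed no other call of a member probe.

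Over all probes, 4392 were called in mutants (1944 up, 2448 down) and 3240 in wild types (1411 up, 1829 down). Median scaling gave 7931 (540 up) and 5158 (558 up). In mutants the fit to only the groups compared gave 2531, the mean signal covariate 563 and leaving out unchallenged mutant replicate 2 gave 2310; in wild types array weights gave 5410, the covariate 1472 and leaving out unchallenged replicate 2 or 3 gave 2106 or 2127. Genotype with challenge had 25 calls, 2 to 224 over the alternatives (192 without challenged wild-type replicate 4, 16 with the block), and genotype without challenge 2, or 36 without unchallenged mutant replicate 2. The interaction had 0, or 8 without that array and 1 with cyclic loess. Signal close to background limits Mmp12 in unchallenged lungs, Mmp8, Mmp19 and the dimmer Timp3 probe: without background correction Mmp12 changed by 2.54 log2 in mutants and 3.21 log2 in wild types, in place of 3.17 and 4.53, and the dimmer Timp3 probe by -0.86 log2 in mutants, in place of -1.66, all still called.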
